A study of Mus musculus with 2 samples.

Results

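The 6 genes described here encode the E proteins and their antagonists, the Id proteins: Tcf3, Tcf4, Tcf12, Id1, Id2 and Id3. They were chosen by name, and all 6 were among the 28692 genes listed in both files. The cells were wild-type CD1 mouse hematopoietic stem and progenitor cells (HSPCs), taken from fetal liver at E13.5, depleted of TER-119+ cells and sorted as Sca-1+ cKit+. They were cultured in wells coated with the Notch ligand DL4 at 10 µg/mL and the adhesion molecule VCAM-1 at 2.32 µg/mL, which direct progenitors toward the T lineage. The 2 droplet libraries, FL001 and FL002, carry the same labels. According to the study, cells captured after sorting or after culture were pooled, but no source used here gives the culture day of either library, and none says that the libraries came from separate cultures.

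E proteins are basic helix-loop-helix transcription factors that pair with each other and bind E-box DNA of the form CANNTG. Id proteins carry the helix-loop-helix part but lack the DNA-binding basic part, so an E protein paired with an Id protein is held off DNA. In lymphoid development, E proteins promote T and B lineage genes, and high Id2 is a hallmark of innate lymphoid and natural killer cells. Id1 and Id3 are known as targets of BMP signalling, and Id3 also responds to antigen receptor signals in later T cells.

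After the minimum of 1500 UMIs (unique molecules) and 500 genes and a maximum of 10% mitochondrial UMIs, 1788 cells of FL001 and 4100 of FL002 remained, with medians of 7722 and 4752.5 UMIs, and 10 barcodes were found in both. Cells were sorted in silico into 6 overlapping gates, none of which uses a gene of the E or Id families. The progenitor gate required at least 2 UMIs of Lmo2 and Mef2c together with at most 1 of Cd3g. The early gate required at most 2 UMIs of Cd3g and at most 1 of Lmo2 and Mef2c together. The Cd3g gate required at least 3 UMIs of Cd3g and no Il2ra, and the Il2ra gate at least 1 UMI of Il2ra, which encodes CD25. The committed gate required at least 2 UMIs over Ptcra, Lef1 and Bcl11b, and the innate gate at least 2 over Rora, Klrd1 and Ncr1. In the order progenitor, early, Cd3g, Il2ra, committed and innate, the gates held 428, 381, 327, 738, 451 and 38 cells of FL001. In FL002 they held 724, 1134, 873, 1668, 501 and 33 cells. In FL001 565 cells (31.6%) and in FL002 829 cells (20.2%) lay in more than 1 gate.

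The comparisons ask where each gene changed on the way from progenitor to committed T-lineage cell, and between the committed and innate branches. Levels are given as CPM, which is a gene's share of all UMIs of the cells in a gate scaled to 1000000. Their 95% exact Poisson intervals, and the exact binomial intervals of shares, cover counting error only. For tests, each cell was given to 1 stage only, with the innate gate taking precedence over the committed, Il2ra, Cd3g, progenitor and early gates in that order. UMIs were summed per library and stage, and the 12 sums were fitted together with edgeR's quasi-likelihood test and the library as a block. P-values were adjusted over the 10801 genes tested, and a gene was said to rise or fall when its adjusted p was under 0.05. After the block takes out the overall difference between libraries, these p-values rest on how far the 2 libraries disagree about the stages. That spread may be technical. Standard errors (±) were derived as the absolute log2 fold change divided by the square root of the test's F statistic. They restate the test and add no separate measure of spread. In summed cells, fewer expressing cells and less RNA per cell cannot be told apart.

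The gates' names were checked against markers of the cell types the cultures could hold. Summed over the marker list, the neutrophil and monocyte genes (Mpo, Elane, Prtn3, Ctsg, Ly6c2, Lyz2, Csf1r and Fcnb) stood at 2172 and 1502 CPM in the progenitor stage of FL001 and FL002. They stood at 1087 and 753 CPM in the early stage and at 25.0 and 83.6 CPM in the committed stage. The progenitor gate was thus a mixture in which 71.0% and 52.2% of cells held at least 3 UMIs of these markers. Of the 9 innate lymphoid and NK markers, Rora, Klrd1 and Ncr1 define the innate gate. The other 6 summed to 378 and 369 CPM in the innate stage, against 0.569 and 2.14 CPM in the committed stage and at most 38.6 CPM in any other stage, and Eomes, which defines mature NK cells, had no UMI in the innate stage of either library. RNA outside cells was read from barcodes with at most 100 UMIs, where Tcf3 stood at 174 and 130 CPM, Tcf12 at 80.5 and 64.0 CPM and Id2 at 132 and 147 CPM. Tcf4 stood at 47.4 and 73.8 CPM in these barcodes, Id1 at 28.7 and 54.3 CPM and Id3 at 18.7 and 44.5 CPM.

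**Figure D1:**
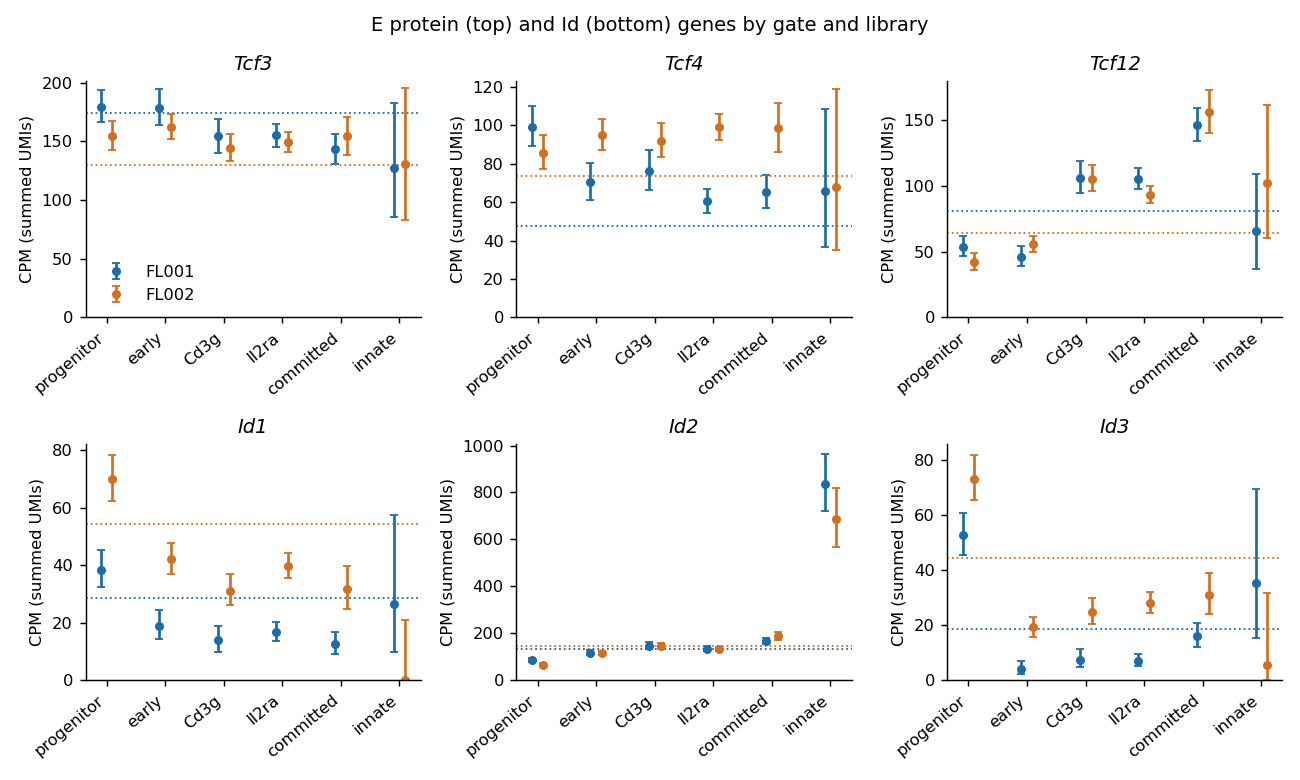
Level of each gene in CPM (vertical axis, from 0) in the 6 gates (horizontal axis), with FL001 in blue and FL002 in orange. Bars are 95% exact Poisson intervals and dotted lines the level in barcodes with at most 100 UMIs. Tcf12 was lowest in the progenitor and early gates and highest in the committed gate, Id2 reached 835 and 686 CPM in the innate gate, and Id1 and Id3 were highest in the progenitor gate among the 5 gates with over 300 cells.

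Among the E protein genes, Tcf12 was the one whose level changed along the T lineage. Tcf12 encodes HEB, the E protein known for its part in pre-T cell receptor expression and beta selection. In FL001 its level was 53.7 CPM in the progenitor gate, 46.2 in the early gate, 106 in the Cd3g gate, 105 in the Il2ra gate and 146 in the committed gate. In FL002 the same gates gave 42.1, 55.8, 105, 93.3 and 156 CPM. Of these 5 gates the committed gate was the highest and the progenitor and early gates the lowest in both libraries, and in each library the intervals of the Cd3g and Il2ra gates overlapped.

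Between exclusive stages, Tcf12 rose from 46.7 and 50.5 CPM in the early stage to 76.9 and 85.8 CPM in the Cd3g stage, a log2 fold change of 0.77 ± 0.13 (SE, adjusted p = 5.33e-05, edgeR). It was the only 1 of the 6 genes to pass in that comparison, in which 7.62% of all genes did, 3.95% higher and 3.67% lower in the Cd3g stage. It rose again from 82.4 and 84.2 CPM in the Il2ra stage to 147 and 156 CPM in the committed stage, by 0.85 ± 0.10 on the log2 scale (adjusted p = 6.81e-08). From the progenitor to the committed stage the rise was 3.21-fold (log2 1.68 ± 0.11, adjusted p = 6.47e-15). No step was detected between the progenitor and early stages (log2 0.05 ± 0.13, adjusted p = 0.883) or between the Cd3g and Il2ra stages (log2 0.01 ± 0.12, adjusted p = 1).

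The higher Tcf12 level followed the commitment genes and not Il2ra. Among cells with at least 2 UMIs of the commitment genes, Tcf12 stood at 139 CPM (95% interval 120 to 160) without Il2ra and at 151 CPM (135 to 168) with it in FL001. In FL002 the corresponding levels were 174 CPM (150 to 202) and 141 CPM (122 to 163), with intervals that overlapped. Cells with Il2ra but no UMI of the commitment genes had 72.9 and 79.6 CPM. At the edge of the gate, cells with 2 UMIs of the commitment genes had 109 and 117 CPM of Tcf12, and cells with 1 UMI, just outside it, had 109.5 and 97.9 CPM.

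Tcf12 UMIs were spread over many cells. After thinning each cell to 1500 UMIs, 8.64% and 7.18% of progenitor-gate cells held one, 7.09% and 8.64% of early-gate cells, and 24.8% and 22.4% of committed-gate cells. Without thinning these shares were 35.5% and 22.9%, 29.4% and 24.4%, and 67.0% and 47.9%. No progenitor-gate cell in either library had 5 or more UMIs. The Tcf12 levels of the progenitor and early gates lay below those in barcodes with few UMIs (80.5 and 64.0 CPM), and the part of RNA outside cells in these shares was not tested.

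Cells with markers of other lineages were most frequent in the progenitor gate and, of these 5 gates, least frequent in the committed gate. These markers were counted without thinning, and alone they do not place a cell in another lineage. Where other-lineage cells are named below, cells with these markers are meant. Cells with at least 3 UMIs over the neutrophil, monocyte, megakaryocyte, erythroid, mast, B and dendritic markers made up 86.0% and 68.9% of the progenitor gate, 65.1% and 41.2% of the early gate, 32.7% and 18.2% of the Cd3g gate, 35.4% and 19.1% of the Il2ra gate and 18.6% and 9.18% of the committed gate. Tcf12 was lower in them than in the other cells of every gate in both libraries. Without them Tcf12 stood at 81.1 and 51.4 CPM in the progenitor gate and at 163 and 160 CPM in the committed gate. The rise between those stages was then 1.38 on the log2 scale (adjusted p = 3.62e-11).

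In the innate stage Tcf12 was lower than in the committed stage, at 65.9 and 102 CPM from 15 and 18 UMIs. The log2 fold change was -0.97 ± 0.24 (adjusted p = 0.00819), and the call was lost when cells with other-lineage markers were left out (log2 -0.73, adjusted p = 0.103). It was also lost with doubled gate thresholds (log2 -1.14, adjusted p = 0.0762) and with stages read at 1500 UMIs per cell (log2 -1.30, adjusted p = 0.0512). In FL001 alone the value was -1.11 and in FL002 alone -0.58.

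Tcf3 and Tcf4 did not pass the test in any of the 6 comparisons. Tcf3 encodes the E protein with the widest role in early lymphoid specification. Its level was 180, 179, 154, 155, 143 and 127 CPM in FL001 and 155, 162, 145, 149, 154 and 130 CPM in FL002, in the order progenitor, early, Cd3g, Il2ra, committed and innate. The levels in barcodes with few UMIs lay within or near this range, and the part of RNA outside cells in the Tcf3 level was not tested. The committed against progenitor comparison gave -0.13 ± 0.09 on the log2 scale (adjusted p = 0.287).

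Tcf4 encodes the E protein known for plasmacytoid dendritic cells, and its order of gates differed between the libraries. In FL001 it stood at 99.3 CPM in the progenitor gate and between 60.4 and 76.4 CPM in the other 5 gates. In FL002 it stood between 85.7 and 99.0 CPM in all gates but the innate gate, where 12 UMIs gave 68.1 CPM. The committed against progenitor comparison gave -0.17 ± 0.14 (adjusted p = 0.383), and -0.41 (adjusted p = 0.0363) once cells with other-lineage markers were left out, a fall that was seen under that setting only. Among progenitor-gate cells without such markers, Tcf4 stood at 122 and 126 CPM.

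Because Tcf12 and Id2 were the members that rose along the T lineage, the DNA before their start sites is shown. The sequences are RefSeq's for GRCm38.p6, 5′ to 3′ on the gene's strand, with the E-box (CANNTG, the same on both strands) in capitals. The submitters' processing notes name mm9, and the files hold no coordinates. Bases that GENCODE M21 places in an exon were left out.
Tcf12, chr9:72111872-72112069, minus strand: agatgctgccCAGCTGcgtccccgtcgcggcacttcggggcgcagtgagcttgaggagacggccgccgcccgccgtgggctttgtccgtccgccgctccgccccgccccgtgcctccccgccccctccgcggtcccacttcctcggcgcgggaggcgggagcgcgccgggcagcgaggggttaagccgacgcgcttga
Id2, chr12:25096254-25096342, minus strand: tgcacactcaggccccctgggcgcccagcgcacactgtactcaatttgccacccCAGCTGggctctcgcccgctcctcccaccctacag
Each stretch holds 1 E-box, of the form CAGCTG, 240 bases before the Tcf12 start and 196 bases before the Id2 start. Neither holds CACCTG or its complement CAGGTG, another form of the E-box. Over 32851 RefSeq promoters, the window of the same length and place held CANNTG in 58.7% (Tcf12) and 33.0% (Id2), and CAGCTG in 10.2% and 4.23%. The Id2 stretch lies in an intron of a longer Id2 transcript of GENCODE M21, on chromosome 12 from 25093799 to 25097140. Tcf12 spans chromosome 9 from 71842688 to 72111871 and overlaps other annotated genes, so its UMIs may include theirs. RefSeq lists 3 Tcf12 starts, numbered here by rising genomic position. Tcf12 lies on the minus strand, so the third is the farthest upstream. The stretch shown lies before the third, the only 1 of these starts with CAGCTG before it. The percents given for Tcf12 are for 1 window and make no allowance for a choice among 3 starts. The 250 bases before the first hold no E-box, and those before the second hold CAAGTG and no CAGCTG. A match of letters is a description, not a binding site.

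**Figure D2:**
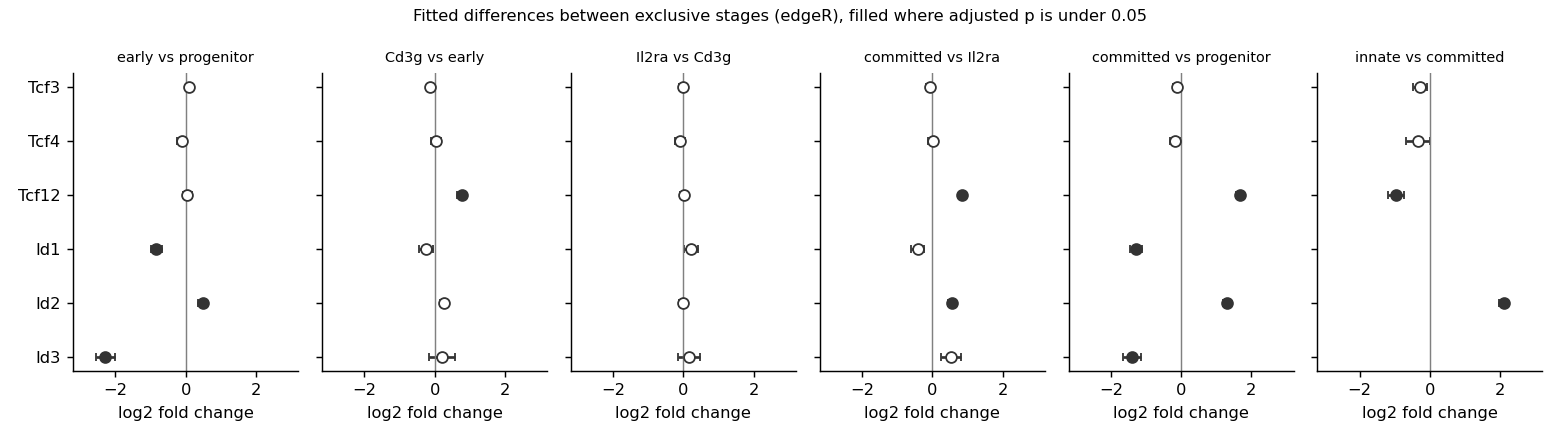
Fitted log2 fold changes (horizontal axis) of the 6 genes (vertical axis) between exclusive stages in the 6 comparisons, with standard errors. Filled points passed an adjusted p of 0.05. Tcf12 and Id2 lie right of 0 in committed vs Il2ra and committed vs progenitor, and Id2 stands at 2.10 in innate vs committed. Id1 and Id3 are not drawn in that comparison because at most 8 UMIs of either were counted per library in the innate stage.

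Among the Id genes, Id2 rose from the progenitor to the committed stage, while Id1 and Id3 were highest in the progenitor gate, most of whose cells carried other-lineage markers. Id2 encodes the Id protein that natural killer and innate lymphoid cells depend on. From the progenitor to the committed gate its levels in FL001 were 85.3, 118, 147, 134 and 167 CPM, and in FL002 63.8, 117, 145, 133 and 188 CPM. The committed gate was the highest of these 5 gates in both libraries. In neither library did the intervals of the Cd3g and Il2ra gates separate, and their levels were close to those in barcodes with few UMIs (132 and 147 CPM).

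Between exclusive stages, Id2 rose 2.47-fold from progenitor (76.6 and 63.9 CPM) to committed (158 and 184 CPM), with a log2 fold change of 1.30 ± 0.11 (adjusted p = 4.87e-12). Of the 6 genes 4 passed in that comparison, 2 in each direction, and so did 36.9% of all genes, 18.5% higher and 18.3% lower in the committed stage. From the Il2ra stage (107 and 122 CPM) to the committed stage the rise was 0.56 ± 0.10 on the log2 scale (adjusted p = 0.000139), and 0.29 (adjusted p = 0.039) with other-lineage cells left out. With Tcf12, Id2 made 2 of 6 genes that passed there, against 9.49% of all genes, 5.25% higher and 4.24% lower in the committed stage. From the Cd3g to the Il2ra stage, none of the 6 genes passed in edgeR or in DESeq2, none had an unadjusted p under 0.05 in edgeR, and 0.12% of all genes passed in edgeR, 0.0926% higher and 0.0278% lower in the Il2ra stage.

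From the progenitor to the early stage Id2 rose by 0.48 ± 0.12 on the log2 scale (adjusted p = 0.00509), from 76.6 and 63.9 CPM to 86.2 and 105 CPM. This small difference did not hold under every setting. With stages read at 1500 UMIs per cell it was -0.17 (adjusted p = 0.63), and with a minimum of 3000 UMIs it was 0.23 (adjusted p = 0.273). With the cells that carried other-lineage markers left out the value was 0.47 (adjusted p = 0.0602), and without the library block 0.48 (adjusted p = 0.122). The change was 0.17 in FL001 and 0.71 in FL002.

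Within the gates, Id2 was higher in cells without other-lineage markers. In the early gate, cells with under 3 UMIs of these markers had 278 and 160 CPM, and the other cells had 59.2 and 69.8 CPM. In the Il2ra gate the same split gave 179 and 156 CPM against 81.3 and 71.2 CPM. In the committed gate it gave 183 and 202 CPM against 120 and 101 CPM. The split had the same direction in all 6 gates of both libraries. The markers were counted without thinning, so the split, here and for Tcf12, also sorted cells by depth. In the early stage the median was 7159 and 4842 UMIs, and 5282 and 4320 UMIs without the cells that carried the markers. The part of depth in these differences was not tested. With the cells that carried other-lineage markers left out, the rise of Id2 from progenitor to committed was 0.71 on the log2 scale (adjusted p = 2.64e-05, edgeR).

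The highest Id2 levels were in the innate gate, at 835 CPM (95% interval 720 to 962) in FL001 and 686 CPM (569 to 820) in FL002. Against the committed stage this was a 4.27-fold rise, with a log2 fold change of 2.10 ± 0.13 (adjusted p = 1.29e-14). Id2 and Tcf12 were 2 of the 6 genes to pass in this comparison, in opposite directions, and 5.15% of all genes passed, 2.33% higher and 2.81% lower in the innate stage. The median over all genes tested was -0.10 on the log2 scale, so the fall of Tcf12 relative to it was slightly smaller than printed. The rise of Id2 passed in each alternative setting that gave a test, and its values, those of each library alone included, ran from 1.90 to 2.41 on the log2 scale.

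The innate gate rests on 38 and 33 cells with 190 and 121 UMIs of Id2. Of these cells 18 (47.4%, exact interval 31.0% to 64.2%) and 11 (33.3%, 18.0% to 51.8%) held 5 or more UMIs of Id2. In the other gates such cells made up 4.07% to 5.50% of FL001 and 1.38% to 2.79% of FL002. After thinning to 1500 UMIs, 57.9% and 54.5% of innate-gate cells had an Id2 UMI, against 22.6% and 22.2% of committed-gate cells and 6.78% and 7.32% of progenitor-gate cells.

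Id2 was high in innate-gate cells both with and without Cd3g. With at least 3 UMIs of Cd3g, 26 and 22 cells had 760 and 654 CPM, and with fewer, 12 and 11 cells had 983 and 746 CPM. The intervals of these pairs overlapped in both libraries. The level was lower at the edge of the gate. Cells with 2 UMIs of Rora, Klrd1 and Ncr1 had 673 and 436 CPM of Id2, and cells with 1 UMI, just outside it, had 249 and 193 CPM.

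**Figure D3:**
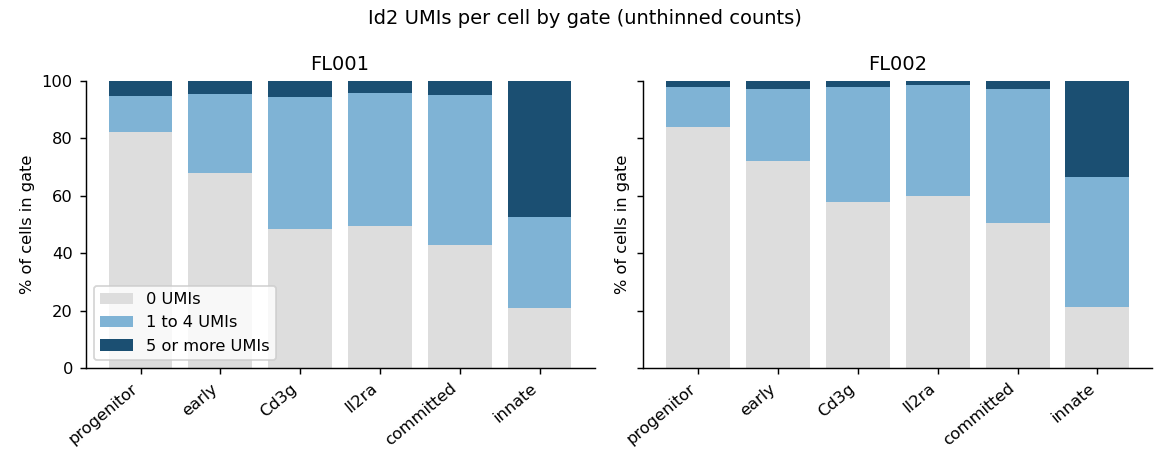
Percent of cells in each gate (vertical axis) with 0, 1 to 4, or 5 or more UMIs of Id2, unthinned, for FL001 (left) and FL002 (right). Cells with 5 or more UMIs made up 47.4% and 33.3% of the innate gate and at most 5.50% of any other gate.

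Id1 and Id3 were highest in the progenitor gate and lower in every other gate with more than 300 cells. Id1 and Id3 encode the Id proteins best known from stem and progenitor cells and from BMP and antigen receptor signalling. In FL001, Id3 stood at 52.6 CPM in the progenitor gate and at 4.04, 7.43, 6.99 and 16.0 CPM in the early, Cd3g, Il2ra and committed gates. In FL002 it stood at 73.2 CPM in the progenitor gate and at 19.2, 24.8, 28.0 and 30.8 CPM in the next 4. Id1 stood at 38.3 CPM and then 18.9, 13.8, 16.6 and 12.6 CPM in FL001, and at 69.9 CPM and then 42.0, 31.1, 39.6 and 31.7 CPM in FL002. Outside the innate gate both genes were higher in FL002 than in FL001 in every gate, as they were in the barcodes with few UMIs. Those barcodes gave 28.7 and 54.3 CPM for Id1 and 18.7 and 44.5 CPM for Id3. In the early, Cd3g, Il2ra and committed gates both genes lay below these values in both libraries. The part of RNA outside cells in these levels was not tested.

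From the progenitor to the early stage, Id3 fell by 2.29 ± 0.27 on the log2 scale (adjusted p = 3.96e-08) and Id1 by 0.84 ± 0.17 (adjusted p = 0.000375). With Id2, 3 of the 6 genes passed in this comparison, in which 11.2% of all genes did, 6.24% higher and 4.93% lower in the early stage. From the progenitor to the committed stage, Id3 fell by 1.40 ± 0.25 (adjusted p = 2.04e-05) and Id1 by 1.29 ± 0.18 (adjusted p = 4.06e-07). Both calls were lost without the library term in the fit. Then the adjusted p in committed against progenitor was 0.156 for Id3 and 0.09 for Id1, and in early against progenitor 0.145 and 0.539. The log2 fold changes were then -1.43 and -1.32, and -2.15 and -0.78. DESeq2 with the library term gave an adjusted p of 0.399 for Id3 and 0.000186 for Id1 in committed against progenitor, and of 0.217 and 0.0543 in early against progenitor.

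The Id1 and Id3 UMIs of the progenitor gate were concentrated in few cells. In FL001, 13 cells with 5 or more UMIs of Id3 held 74.9% of its UMIs in that gate, and in FL002, 21 cells held 62.4%. For Id1 the corresponding cells were 7 and 17, with 39.4% and 44.8% of its UMIs. Id2 was similarly uneven there, with 22 and 15 such cells holding 69.0% and 39.1% of its UMIs.

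The same cells often carried more than 1 of these genes. After thinning to 1500 UMIs, Id1 was found in 36.8% of the 19 progenitor-gate cells with Id3 in FL001, against 2.93% of those without it. In FL002 it was found in 37.5% of 48 cells with Id3, against 4.29% of the others. Id2 was found in 42.1% and 25.0% of the cells with Id3, against 5.13% and 6.07% of those without. Cells of 1 library are not replicates, so these shares describe the libraries.

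Csf1r, the receptor of macrophage colony-stimulating factor and a monocyte marker, moved with the Id genes in the progenitor gate. Cells with at least 1 UMI of Csf1r numbered 45 of 428 in FL001 (10.5%) and 48 of 724 in FL002 (6.63%). They held 61.5% and 45.0% of the gate's Id3 UMIs, 42.3% and 35.0% of its Id1 UMIs and 35.8% and 20.3% of its Id2 UMIs. They held 12.2% and 5.63% of its Tcf3 UMIs, 18.5% and 7.97% of its Tcf4 UMIs and 9.05% and 6.15% of its Tcf12 UMIs. Of the gate's UMIs of all genes, they held 539713 of 3705431 in FL001 and 374690 of 4248886 in FL002. Their Id3 level was 222 and 374 CPM, against 23.7 and 44.1 CPM in the gate's other cells.

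**Figure D4:**
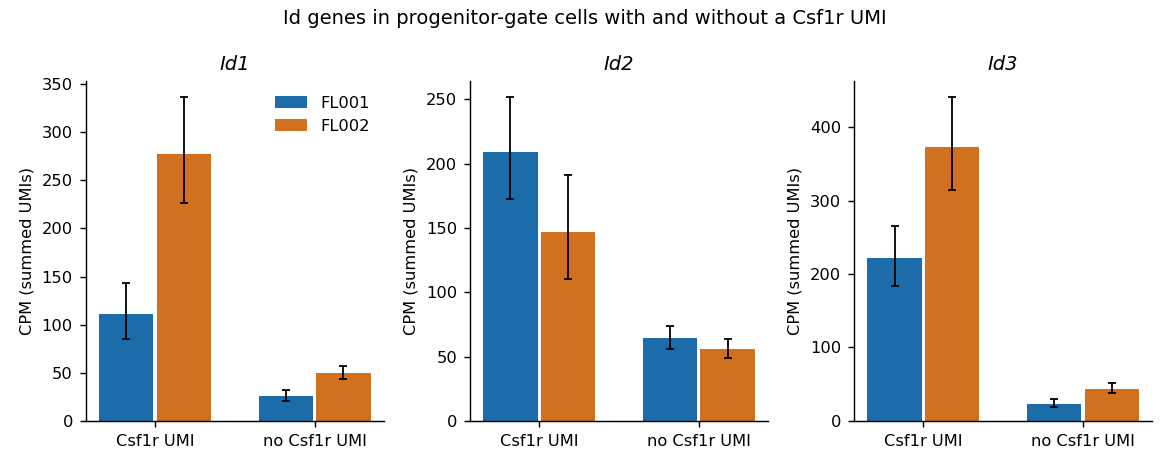
Levels in CPM (vertical axis, from 0) of Id1, Id2 and Id3 in progenitor-gate cells with and without a Csf1r UMI, FL001 in blue and FL002 in orange. Bars span 95% exact Poisson intervals. All 3 genes were higher in the cells with Csf1r in both libraries, with Id3 at 222 and 374 CPM against 23.7 and 44.1 CPM.

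Seen from the other side, progenitor-gate cells with 3 or more UMIs of Id3 (18 and 35 cells) had Csf1r at 126 and 108 CPM, against 12.3 and 8.13 CPM in cells without Id3. Lyz2, another gene of monocytes and macrophages, stood at 402 and 342 CPM against 143 and 106 CPM. Cd209a, a dendritic marker, stood at 60.3 and 39.0 CPM against 1.20 and 2.98 CPM. Elane and Ctsg, granule protease genes of neutrophil precursors, were lower in the cells with Id3, with Elane at 5.03 CPM and 0 against 160 and 98.1 CPM. Mpo stood at 940 and 749 CPM against 1060 and 735 CPM. Of the 8 neutrophil and monocyte markers, Csf1r and Lyz2 were the 2 that were higher in cells with Id3 in both libraries, and of the 6 dendritic markers, Cd209a and H2-Aa were. In FL002 the H2-Aa difference rests on very few UMIs, with 4.33 CPM in cells with Id3 and 2.71 CPM in cells without it. The cells compared here were chosen by their Id3 counts, and no test was made.

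Id3 gave no UMI in some small groups of progenitor-gate cells, which are too few to show that it was absent. In the 13 and 16 progenitor-gate cells with megakaryocyte markers, no UMI of Id2 or Id3 was counted, and 3 counts, taken as the limit that a count of 0 allows, would be 26.6 and 35.7 CPM. In the 8 and 14 cells with erythroid markers no UMI of Id1, Id2 or Id3 was counted, with 3 counts at 38.7 and 38.3 CPM. Tcf3 stood at 124 and 95.1 CPM in the former and at 116 and 140 CPM in the latter. Over the whole progenitor gate, 9.35% and 12.6% of cells held an Id3 UMI, 14.5% and 16.9% an Id1 UMI and 17.8% and 16.2% an Id2 UMI. Since the UMIs of these genes were concentrated in few cells, the level that a count of 0 allows may be higher than 3 counts.

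With the cells that held a Csf1r UMI left out, Id3 still fell from progenitor to early (log2 -1.78, adjusted p = 0.000101) and Id1 still fell from progenitor to committed (log2 -0.77, adjusted p = 0.00194). The fall of Id3 from progenitor to committed was then -0.44 (adjusted p = 0.23), and that of Id1 from progenitor to early -0.36 (adjusted p = 0.228). With all cells that carried other-lineage markers left out, the falls from progenitor to committed were -0.34 for Id3 (adjusted p = 0.497) and -0.20 for Id1 (adjusted p = 0.69). That setting left 60 and 225 cells in the progenitor gate. Without such cells, the Id1 level in FL001 was 31.0 CPM in the progenitor gate and 14.3 CPM in the committed gate. In FL002 the Id1 level in these gates was 29.4 and 30.7 CPM. Id3 stood at 28.6 and 11.7 CPM in FL001 and at 35.8 and 31.7 CPM in FL002.

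At the edge of the progenitor gate, cells with 2 UMIs of Lmo2 and Mef2c had 45.1 and 53.0 CPM of Id3, and cells with 1, just outside it, had 5.67 and 31.5 CPM. At the edge of the Cd3g gate, cells with 3 UMIs of Cd3g had 59.4 and 69.7 CPM of Tcf12 and cells with 2 had 56.7 and 76.3 CPM.

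In the innate gate, Id1 and Id3 gave few UMIs. In FL001, 6 UMIs of Id1 came from 1 cell and 8 UMIs of Id3 from 4 cells, and in FL002 there was 1 UMI of Id3 and none of Id1 (3 counts would be 17.0 CPM). Id2 made up 93.1% and 99.2% of the Id UMIs in this gate. In the committed gate Id2 made up 85.4% and 75.0% of them, and in the progenitor gate 48.4% and 30.8%.

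The balance of the 2 families was read as the share of E protein UMIs among the E and Id UMIs of a gate. This share depends on how well each gene is captured, so it was compared between gates and not read as an excess of either family. In FL001 it was 65.4%, 67.7%, 66.8%, 67.0% and 64.4% from the progenitor to the committed gate. In FL002 it was 57.7%, 63.8%, 63.0%, 63.0% and 62.0%. In FL001 the intervals of all 5 gates overlapped, and in FL002 the progenitor gate (55.6% to 59.9%) lay below the early gate (62.0% to 65.5%). These gates share cells, and the exclusive stages differed more. In FL001 the progenitor stage had 67.2% (64.9% to 69.4%), the early stage 73.1% (70.1% to 76.0%) and the committed stage 65.7% (63.5% to 67.8%). In FL002 these stages had 57.0% (54.7% to 59.2%), 65.4% (63.3% to 67.5%) and 62.3% (59.8% to 64.7%). The interval of the early stage thus lay above that of the progenitor stage in both libraries, and above that of the committed stage in FL001 only. In FL002 the early stage was also higher than the committed stage, with intervals that overlapped. Among gate cells without other-lineage markers, the order of progenitor and early was turned. Their share was 67.6% in both libraries in the progenitor gate, and 50.9% and 62.7% in the early gate. Progenitor-gate cells without a Csf1r UMI had 74.7% and 65.9%. No such share was computed for the exclusive stages.

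In the innate gate the E share was 22.4% (exact interval 17.5% to 28.0%) in FL001 and 30.3% (23.6% to 37.7%) in FL002. These intervals lay below those of all other gates in both libraries. On the log2 scale the ratio of E to Id UMIs changed by -2.72 in FL001 and -1.92 in FL002 from the committed to the innate stage. Without Id2, the change over both libraries was -0.30 instead of -2.38, so Id2 carried most of it.

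From the progenitor to the committed stage the log2 ratio changed by -0.10 in FL001 and 0.32 in FL002, and by 0.15 over both. The direction was not shared by the libraries, and with only 2 of them no test was made. It was also not shared by the genes. Without Id2 the change was 1.79, without Tcf12 it was -0.34, and with the same weight for each gene it was 0.99. With Csf1r cells left out it was -0.40. Members were exchanged on both sides of the ratio. Tcf12 made up 16.2% and 14.9% of the E protein UMIs in the progenitor gate and 41.2% and 38.2% in the committed gate, while Id3 made up 29.9% and 35.4% of the Id UMIs and then 8.15% and 12.3%.

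**Figure D5:**
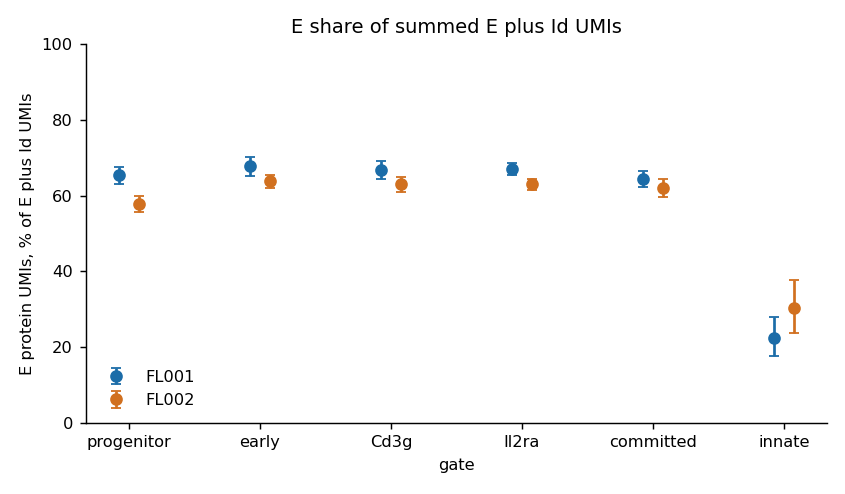
E protein UMIs as a percent of E plus Id UMIs (vertical axis, 0 to 100) in the 6 gates (horizontal axis), FL001 in blue and FL002 in orange, with 95% exact binomial intervals. The share lies between 57.7% and 67.7% in 5 gates and at 22.4% and 30.3% in the innate gate.

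At the level of single cells, thinned to 1500 UMIs, E protein UMIs outnumbered Id UMIs in 39.2% and 34.5% of committed-gate cells and Id UMIs outnumbered E protein UMIs in 16.2% and 20.4%. In the innate gate the order was turned, with 10.5% and 24.2% against 55.3% and 39.4%. In the progenitor gate, 51.2% and 55.0% of cells held no UMI of either family at this depth. Tcf12 and Id2 were not found in separate cells of the committed gate. Tcf12 had a UMI in 25.5% and 23.4% of the cells with Id2 and in 24.6% and 22.1% of those without.

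The lists of other genes in the pathway were set with earlier results of these data known, and their counts describe the lists without a test. Of 14 tested genes known as E protein targets in lymphoid precursors, 11 rose from progenitor to committed and none fell, where 18.5% of all genes rose and 18.3% fell. The list's median log2 fold change was 2.61, against -0.01 over all genes. The progenitor gate limits Cd3g, and the committed gate requires UMIs of the commitment genes. A rise of T-lineage genes such as Cd3d, Cd3e and Rag1 is thus partly built into the stages. These counts do not measure E protein activity, and the part of the gates in them was not tested. The largest rises were those of the CD3 chain genes Cd3d (log2 7.27 ± 0.21, adjusted p = 1.94e-26) and Cd3e (5.72 ± 0.25, adjusted p = 1.11e-20) and of the recombinase gene Rag1 (4.62 ± 0.27, adjusted p = 1.03e-16). Rag1 stood at 2.87 and 2.53 CPM in the progenitor stage and at 53.5 and 75.0 CPM in the committed stage. Socs3, a cytokine signalling inhibitor, rose by 3.29 ± 0.39 (adjusted p = 1.23e-08).

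From committed to innate, 6 of these genes fell, as did 2.81% of all genes, with a list median of -1.49 against -0.10 over all genes. The committed stage was chosen by the commitment genes, so falls of T-lineage genes may also be partly built in, which was not tested. Cd3d fell by 1.89 ± 0.22 on the log2 scale (adjusted p = 7.10e-08) and Cd3e by 1.82 ± 0.37 (adjusted p = 0.00116). Rag1 went from 53.5 and 75.0 CPM to no UMI in FL001 and 5.67 CPM in FL002 (adjusted p = 0.000101).

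Of 10 tested partners and cofactors of helix-loop-helix factors, 1 rose and 4 fell from progenitor to committed, with a median of -0.08, where 36.9% of all genes passed in either direction. The gene that rose was Bhlhe40 (log2 3.33 ± 0.43, adjusted p = 6.09e-08). Tal1, a partner of E proteins in stem and erythroid cells, fell by 2.82 ± 0.31 (adjusted p = 1.39e-09), and Lmo1 fell from 52.8 and 30.1 to 8.53 and 12.4 CPM (adjusted p = 5.81e-09). The corepressor gene Cbfa2t3 fell from 89.2 and 80.6 to 37.8 and 46.3 CPM (adjusted p = 6.35e-08). From committed to innate, the LIM-domain gene Lmo4 was the 1 gene of the list to pass, with a rise of 2.50 ± 0.21 (adjusted p = 2.08e-11) from 44.1 and 41.2 to 233 and 289 CPM.

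Of 13 tested genes known as inputs to Id genes, 2 rose and 4 fell from progenitor to committed, with a median of -0.07, a count near the 36.9% of all genes that passed. Zbtb16, which encodes the innate-type factor PLZF, rose by 2.70 ± 0.21 on the log2 scale (adjusted p = 1.55e-13). Tgfbr1, a TGF-beta receptor, rose by 1.86 ± 0.16 (adjusted p = 7.79e-12). Smad6 and Smad7, the inhibitory Smads, both fell, with Smad6 at 6.89 and 4.30 CPM in the progenitor stage and at 0 in the committed stage of both libraries (adjusted p = 2.48e-06) and Smad7 down by 0.95 ± 0.22 (adjusted p = 0.000629). From committed to innate, Tox rose from 21.9 and 24.0 to 61.5 and 113 CPM (log2 1.79 ± 0.31, adjusted p = 0.000111). Zbtb16 rose by 1.08 ± 0.28 (adjusted p = 0.0112) and Tgfbr1 fell by 1.45 ± 0.41 (adjusted p = 0.0269).

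For each of the 6 genes, the genes with the most similar pattern were sought among 5491 genes with a mean of at least 20 CPM, by Pearson's r of log2 CPM over the 12 sums. These sums share 2 libraries and their free RNA, so r is a description only. Tcf12 was most like Hdac4 (r = 0.977), Arpp21 (0.948) and 2310001H17Rik (0.947), and least like Tspan32 (-0.932). Id2 was most like 1110008P14Rik (0.968), Irf2bpl (0.965) and Trim26 (0.963), and least like Slc39a11 (-0.99). Its r with Tcf3 was -0.89, and with Tcf12 0.35. Both values include the innate sums, where Id2 was highest (835 and 686 CPM) and Tcf3 lowest (127 and 130 CPM) in each library. No r was computed without the innate sums.

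Tcf3 was most like Paics (0.963), Ywhaq (0.949) and Nelfa (0.946) and least like Tgoln1 (-0.971). Among the genes most like Tcf4 were Parg (0.916) and Smarcad1 (0.902), and it was least like Gm5617 (-0.894). Id1 was most like Kat8 (0.963), Ankrd17 (0.959) and Atad2 (0.955) and least like Cltb (-0.912). Id3 was most like Clk4 (0.916), Atf7ip (0.899) and Jarid2 (0.878) and least like Ppat (-0.925). The r between Id1 and Id3 was 0.56. All r of Id1 and Id3 include the innate sums of FL001 and FL002. These sums held 6 and 0 UMIs of Id1 and 8 and 1 UMIs of Id3, so these r may rest on very low counts.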

How the data were processed

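The authors prepared the droplet libraries with 10X Chromium, read them on a NextSeq instrument and ran CellRanger. What they deposited are unnormalized UMI counts of every gene in every barcode, empty droplets included. The submitters' processing notes name mm9, and the counting version is not given in the sources used here. Totals were 16320118 and 22651783 counts.

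Cells were filtered, gated and summed with Python 3.11.15, and the 12 sums were tested with edgeR 4.0.16 (TMM, filterByExpr) and, as an alternative, DESeq2 1.42.0. The library is the pairing factor, since stages of 1 library share cells' processing, and enters as a block. Scrublet (scanpy 1.11.5, expected rate 6%) called 7 and 2 cells, under 0.5%, so doublets were kept and leaving out the top 5% of cells was an alternative. Cells with UMIs of both Xist and a Y chromosome gene were more frequent. They numbered 64 in FL001 (3.58%) and 105 in FL002 (2.56%), and whether they were doublets was not tested. Members, gates, gene lists and tests were chosen with earlier results of these data known. Named genes are the 6 members, called list genes with the 4 largest fold changes per list in 2 comparisons, and the 3 most and 1 least similar genes per member. A few genes that this rule names are not reported here. Csf1r and the cells rich in Id3 were singled out after values were seen. In simulated data for committed vs progenitor with 10801 genes and 200 changed 2-fold, 145 (72.5%) were called, as were 5 unchanged genes. Each unchanged gene was drawn with the same mean share in all 12 sums, so the simulation held no difference between libraries. It also held no stage difference in other genes, so these rates are for that setting only.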

Additional observations from a re-analysis of the deposited data

How the results depend on the processing

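The number of the 6 genes that passed stayed within 1.5 times the reported count in 73 of 81 combinations of a comparison and an alternative. This figure compares counts, not which genes passed, and includes Il2ra against Cd3g, where none passed under any setting. With other-lineage cells left out, Tcf4, Tcf12 and Id2 passed in committed against progenitor, and Id1 and Id2 in innate against committed. Both are among the 73, although the genes changed. In early against progenitor 3 genes passed, against 0 with no replicate block, 1 with stages read at 1500 UMIs (Id3), 1 with other-lineage cells left out (Id3) and 1 with DESeq2 (Id2). In Cd3g against early 3 passed in place of 1 with stages read at 1500 UMIs (Tcf12, Id1 and Id2). In committed against progenitor 2 passed in place of 4 with no replicate block (Tcf12 and Id2). In innate against committed 1 passed in place of 2, Id2, both with stages read at 1500 UMIs and with doubled thresholds. The early against progenitor value of Id2 turned from 0.48 to -0.17 with stages read at 1500 UMIs. The change in the E to Id ratio from progenitor to committed, 0.15, reversed to -0.22 without other-lineage cells, -0.40 without Csf1r cells (an alternative chosen after seeing the data), -0.34 without Tcf12, -0.21 without Id1 and -0.28 without Id3. It moved to 0.56 without Tcf3, 1.79 without Id2 and 0.99 with equal weights, and ranged from -0.10 to 0.32 leaving out 1 library. The change from committed to innate, -2.38, moved to -2.97 with stages read at 1500 UMIs, -0.30 without Id2 and -1.07 with equal weights, and ranged from -2.72 to -1.92 leaving out 1 library. The cause was not tested. Leaving out cells in several gates gave no committed or innate sums, and with 1 library left no test has residual degrees of freedom, so values only were computed. Id1 passed in 3 further combinations: lower in committed than Il2ra with a minimum of 3000 UMIs (-0.61) or 5% mitochondrial UMIs (-0.72), and in innate against committed without other-lineage cells, where it had no UMI. Depth limits the innate stage most, where 1 UMI equals several CPM.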
